A study of Mus musculus with 5 samples.

Results

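The genes described here copy DNA and divide the cell: 44 genes of origin licensing, the replication fork, deoxynucleotide supply, the cell-cycle cyclins and their transcription factors, the mitotic kinases, the kinetochore and spindle, and cytokinesis. They were found by gene symbol in a table of 15116 genes measured in mouse heart. Of the 44, 39 had a row, and Plk1, Bub1, Foxm1, Ect2 and Kif20b were not analysed here. The question was how these genes compare between hearts with a deletion of Immt and control hearts, and at what level they were expressed at all.

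The 2 knockout libraries are of Immtfl/fl-Myh6-MCM hearts, in which a tamoxifen-inducible MerCreMer recombinase under the cardiomyocyte promoter Myh6 removes Immt, so that other heart cells keep the gene. The 3 control libraries are of Immt+/+-Myh6-Cre hearts, with intact Immt alleles and, by the label, a Myh6-Cre transgene. The paper's strain name for the MerCreMer transgene includes Esr1. Esr1 was at 439 and 478 CPM in the knockout libraries, against 0.733, 0.807 and 1.07 CPM in the control libraries. All 5 samples are labelled as tamoxifen-injected, and tamoxifen was given 3 times at 6 weeks of age. Knockout hearts were taken 10 weeks later, and controls are described as matched for age, so deletion of Immt and the difference in transgene cannot be told apart. By the study's methods the mouse was the unit of experiment. The methods state for the study as a whole that littermates were compared, and describe these controls only as matched for age. Both sexes of the inducible line were used, but only males in experiments with the Myh6-Cre line. The sex of these animals is not given here, so any difference in sex between the groups cannot be told apart from deletion of Immt. The labels give each library a title but tie none to an animal, so p-values measure the spread between these samples. Immt itself was at 15.98 and 19.83 CPM in the knockout libraries, against a control mean of 254 ± 7.76 CPM (SD, n = 3), 7.04% of the control level (limma, adjusted p = 4.6e-07).

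Before a cell copies its DNA, the MCM2-7 helicase is loaded at origins, ribonucleotide reductase and its partner enzymes raise the supply of deoxynucleotides, and cyclins D, E and A with their kinases release E2F transcription factors from the retinoblastoma proteins. Cyclin B with Cdk1, the Aurora and Polo kinases and the spindle checkpoint then drive mitosis, in which centromere proteins tie chromosomes to the spindle and a midzone of kinesins and Prc1 places the cleavage furrow. Most cardiomyocytes of the adult mouse have left the cell cycle, whereas endothelial cells, fibroblasts and macrophages of the heart renew slowly, so transcripts of this kind are scarce in whole heart.

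Values are in normalized CPM, read shares (tags per M) that the authors scaled to normalized library sizes. The libraries were 3′ tags, which give about 1 read per captured transcript end whatever the transcript's length, so levels of different genes are compared here as tags per M. The deposited table gives a mean and a standard deviation (SD) per group, and the value of each library was worked back from them. The libraries had effective sizes of 15.2 and 14.1 M reads in the knockout and 13.6, 13.6 and 12.1 M in the control, and 1 read was worth between 0.0658 and 0.0825 CPM. Below, knockout values are given for the larger and then the smaller library, and control values for the largest, the middle and the smallest. Which library carries which replicate number is not known. A gene was called higher or lower at an adjusted p below 0.05 in limma's moderated test of log2(CPM + 0.5) over all 15116 genes, and log2 fold changes are knockout over control on that scale, which understates the change of low genes.

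Of the 39 genes, 12 were lower in knockout hearts and 1, Ccnd2, was higher, while 26 were not called. Of all genes tested, 12.3% were called lower and 13.3% higher, against 30.8% and 2.56% of these genes. Values were also scaled to each group's summed mean over all listed genes, which multiplies every library of a group by the same factor. With this scaling 3056 genes of the table were higher and 1362 lower, against 2015 and 1858. The counts here were then 2 higher and 12 lower. Without this scaling the median log2 fold change of the 39 genes was -0.46 and that of all genes -0.02. Of the 39, 34 had a value below 0. Reads could be worked back in every library for 38 of them, and in 25 of these both knockout libraries lay below all control libraries, while in 1 both lay above. Over the 12731 genes with recovered reads those shares were 28.1% below and 22.5% above.

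Mcm2, Cenpa and Cenpf remained called lower whichever library was left out, and none of the other genes called lower did so. These fits took the 12731 genes with recovered reads, of which 12.1% were called lower with all libraries, against 12 of the 38 genes. Without the larger knockout library 5 of the 38 were lower, against 5.62% of all genes, and Mcm4, Mcm5, Lig1, Rrm1, Rrm2, Ccne2 and Ccna2 were not called (limma adjusted p between 0.051 and 0.23). Without the smaller one 4 were lower, against 5.14% of all genes, and Mcm4, Mcm5, Lig1, Rrm1, Ccnd1, Ccnd3, Ccne2 and Ccna2 were not called (limma adjusted p between 0.054 and 0.29). Leaving out the largest, the middle or the smallest control library gave 7, 9 and 15 genes lower, beside 8.43%, 8.78% and 16.4% of all genes, and the 12 had log2 fold changes below 0 in every one of these fits. Mcm4, Lig1 and Ccne2 were called in only 1 of the 5 fits.

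Most of these genes were close to the floor of the table. The mean over the 5 libraries was under 5 CPM for 29 of the 39, with a median of 1.54 CPM, against 7.65 CPM over all genes. Among the 29 low genes 5 were called lower, and among the 10 genes at 5 CPM or more 7 were. In the whole table the shares called lower were 10.2% of genes under 5 CPM and 13.7% of the others. At 1 CPM a library here holds between 12.1 and 15.2 reads, and a change of a few reads moves such a gene by a large fraction of its level.

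**Figure D1:**
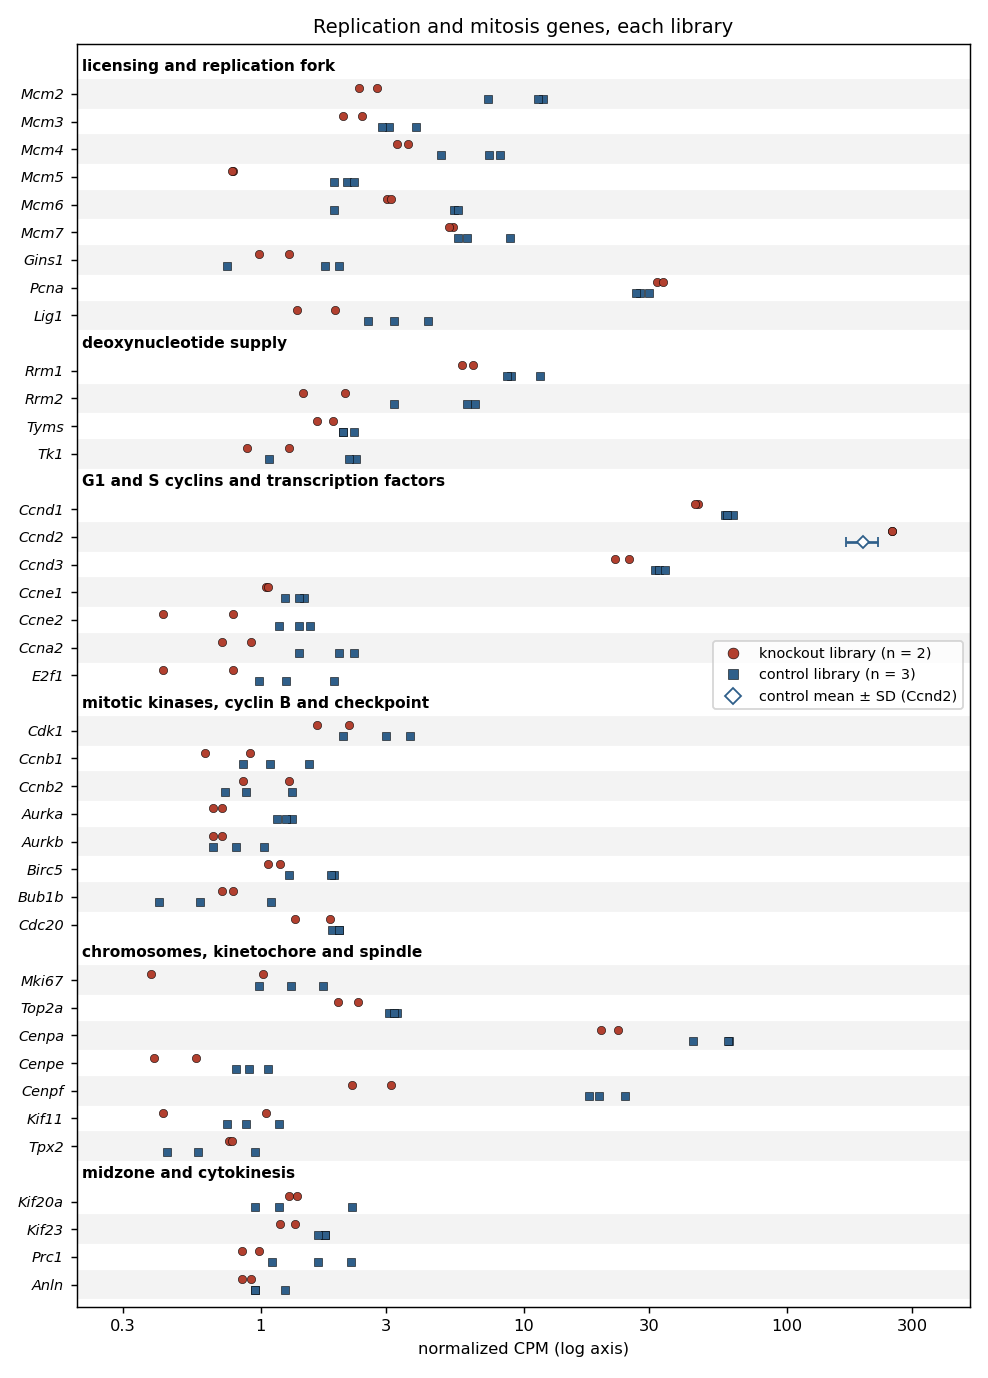
Normalized CPM on a log axis of the 39 genes, grouped by role. Circles are the 2 knockout libraries and squares the 3 control libraries, with the control mean and SD (diamond and bar) for Ccnd2, whose control libraries could not be worked back. The 8 mitotic kinase, cyclin B and checkpoint genes have means of 0.720 to 2.52 CPM, and the knockout circles of Cenpf, at 2.24 and 3.13 CPM, stand clear of its control squares at 17.7 to 24.3 CPM.

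In bulk tissue fewer cells of a type and less RNA per cell cannot be told apart. The tissue label fitted the markers of cardiomyocytes, all 10 of which were listed with means of at least 576 CPM. Of these 6 were lower in the knockout, with a summed group mean of 31756 CPM in the knockout and 37555 CPM in the control. Macrophage markers, all 10 listed and all with a log2 fold change below 0, had 4 genes called lower (C1qa, C1qb, C1qc and Lyz2) and a median of -0.41. The 9 of them with recovered reads summed to 161 and 165 CPM in the knockout libraries, against 212, 207 and 235 CPM in the control libraries. Endothelial markers had 1 of 10 higher and none lower, and their 9 genes with recovered reads summed to 284 and 266 CPM in the knockout against 259, 247 and 274 CPM in the control. Fibroblast markers had 1 of 10 lower and erythroid markers 0 of 5 called. Mural cell markers had 2 of 9 lower, Abcc9 and Cspg4, and the other 7 were not called. Of the 9 lymphocyte markers 1 (Ptprc) had a row, and the 6 neutrophil markers were not analysed here. The part of these cell types in the results below was not tested.

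The control libraries did not rank alike in these genes. Among the 38 with recovered reads the smallest control library was the lowest in 19 and the highest in 8. The largest was the lowest in 7 and the highest in 18, and the middle one in 12 and 12. Such ranks were not taken over all genes. The genes in which the smallest library was highest included the mitotic genes Cdk1, Ccnb1, Ccnb2 and Kif20a. Cdkn1a, which encodes the CDK inhibitor p21, was at 83.2 and 68.1 CPM in the knockout libraries and at 10.3, 9.54 and 43.6 CPM in the control libraries. Among other CDK inhibitors the same control library was the highest of the controls in Cdkn1c, at 10.4 CPM, and the lowest in Cdkn2d, at 15.4 CPM. Whether these values are linked to those of the genes described here was not tested. Without the smallest control library 15 of the 38 genes were called lower, and 16.4% of all genes were, against 12 of the 38 and 12.1% with all libraries. The 15 were E2f1, Mcm6 and Tk1 beside the 12 named below.

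Origin licensing and the replication fork held 9 genes, of which 4 were lower and none was higher, with a median log2 fold change of -0.46. The 6 genes Mcm2 to Mcm7 encode the subunits of the replicative helicase. Mcm2 was at 2.37 and 2.77 CPM in the knockout libraries, against 11.8, 11.4 and 7.35 CPM in the control libraries. The groups did not overlap, and the knockout mean was 25.3% of the control mean (log2 fold change -1.77, SE 0.21, limma adjusted p = 0.00055). In reads, Mcm2 had 36 and 39 in the knockout and 161, 155 and 89 in the control.

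Mcm5 was at 0.789 and 0.782 CPM in knockout hearts, against 1.91, 2.13 and 2.27 CPM in controls, a mean 2.68-fold lower (log2 fold change -1.01, SE 0.18, limma adjusted p = 0.0043). These values rest on 12 and 11 reads in the knockout libraries and on 26 to 29 in the control libraries. Mcm4 was at 3.29 and 3.62 CPM in the knockout and at 7.41, 8.15 and 4.87 CPM in the control, 1.97-fold lower (log2 fold change -0.86, SE 0.21, limma adjusted p = 0.019). Its groups did not overlap either.

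The other subunits of the same helicase were not called. Mcm3 was at 2.43 and 2.06 CPM in the knockout and at 3.08, 3.89 and 2.89 CPM in the control (log2 fold change -0.46, limma adjusted p = 0.10), and Mcm7 at 5.39 and 5.22 CPM against 8.87, 6.09 and 5.61 CPM in the control (-0.32, limma adjusted p = 0.27). Mcm6 was at 3.03 and 3.13 CPM in the knockout, against 5.43, 5.65 and 1.90 CPM in the control (-0.31, limma adjusted p = 0.59), and its groups overlapped through the smallest control library. Whether the fold changes of the 6 subunits differ from each other was not tested.

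Lig1, the ligase that seals Okazaki fragments, was at 1.38 and 1.92 CPM in the knockout, against 3.23, 4.33 and 2.56 CPM in the control, 2.04-fold lower (log2 fold change -0.83, SE 0.23, limma adjusted p = 0.030). Gins1, a subunit of the GINS complex that completes the active helicase, was at 0.987 and 1.28 CPM in the knockout and at 1.98, 1.76 and 0.743 CPM in the control, overlapping groups with no call (-0.23, limma adjusted p = 0.63). Pcna, the sliding clamp of the replicative polymerases, which also serves DNA repair, had the highest fold change of this role. It was at 32.2 and 33.9 CPM in knockout hearts, against 29.99, 27.6 and 26.9 CPM in control hearts, and although the groups did not overlap it was not called (log2 fold change 0.23, SE 0.09, limma adjusted p = 0.095). Scaled to group totals, which moved the median of all genes to 0.09, Pcna was called higher at 0.36 (limma adjusted p = 0.018).

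Promoter sequence is shown for 5 of these genes because members of the licensing and deoxynucleotide roles are known targets of E2F, and the mitotic genes of the DREAM complex and B-Myb through a cell-cycle homology region (CHR) and of NF-Y through CCAAT boxes. RefSeq windows of 300 bases, 250 before and 50 after a transcript start (GRCm38.p6), were at hand for 34 of the 44 symbols. Each stretch lies upstream of the starts that RefSeq and GENCODE M21 give for the gene. Capitals mark matches on either strand to 4 E2F words, which are TTCCCGC, then the variant TTCGCGC, then the variant TTGCCGC, and then the variant TTGGCGC, to 2 CHR words, TTTGAA as well as the variant TTCGAA, and to the CCAAT box. Mcm2, Mcm5, Rrm1 and Cenpf were called lower, and Mcm6 is the uncalled gene of the same role as Mcm2 and Mcm5.
Mcm2, chr6:88898831-88898970, minus strand: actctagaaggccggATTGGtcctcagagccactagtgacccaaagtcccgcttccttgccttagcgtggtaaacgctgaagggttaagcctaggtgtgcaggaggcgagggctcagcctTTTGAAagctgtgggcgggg
Mcm5, chr8:75109334-75109443, plus strand: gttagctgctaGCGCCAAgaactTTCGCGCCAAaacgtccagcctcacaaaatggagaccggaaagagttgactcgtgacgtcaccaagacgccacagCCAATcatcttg
Mcm6, chr1:128359736-128359825, minus strand: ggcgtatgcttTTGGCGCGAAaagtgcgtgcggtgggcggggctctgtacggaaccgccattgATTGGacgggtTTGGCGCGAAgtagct
Rrm1, chr7:102441595-102441664, plus strand: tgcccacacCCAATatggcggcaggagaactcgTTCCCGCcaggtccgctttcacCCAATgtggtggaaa
Cenpf, chr1:189688147-189688231, minus strand: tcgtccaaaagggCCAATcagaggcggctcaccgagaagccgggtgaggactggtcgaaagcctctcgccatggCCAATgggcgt

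The Mcm5 stretch held 3 E2F words, of which 2 overlap, and 1 CCAAT. The Mcm6 stretch held 4 E2F words in 2 overlapping pairs and 1 ATTGG, the reverse complement of CCAAT. Mcm2 held the CHR word TTTGAA and 1 ATTGG but no E2F word in its window. Rrm1 held 1 E2F word between 2 CCAAT boxes, and Cenpf 2 CCAAT boxes. The Cenpf window also held the CHR word TTTGAA just after the start, outside the stretch shown. Over all 27025 symbols with a window 9.69% held an E2F word, 19.4% a CHR word and 37.9% a CCAAT box, against 10, 19 and 25 of the 34 genes here. Of the 8 genes called lower that had a window, 3 held an E2F word, 3 a CHR word and 6 a CCAAT box, and of the 22 that were measured and not called, 6, 12 and 16 did. A match of these letters is a description of the sequence and not a measured binding site.

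The 4 genes of deoxynucleotide supply all had log2 fold changes below 0, with a median of -0.58, and 2 were lower. Rrm2, the S-phase subunit of ribonucleotide reductase, was at 1.45 and 2.097 CPM in the knockout libraries, against 6.53, 3.23 and 6.11 CPM in the control libraries. Its mean was 2.98-fold lower with no overlap (log2 fold change -1.31, SE 0.28, limma adjusted p = 0.011). Rrm1, the catalytic subunit of the same enzyme, was at 5.85 and 6.40 CPM in the knockout and at 11.6, 8.99 and 8.67 CPM in the control, 1.59-fold lower (log2 fold change -0.62, SE 0.15, limma adjusted p = 0.018).

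Thymidylate synthase, Tyms, which makes dTMP, was at 1.64 and 1.88 CPM in the knockout and at 2.27, 2.06 and 2.06 CPM in the control, the smallest change of this role (log2 fold change -0.22, SE 0.17, limma adjusted p = 0.40). Tk1, the thymidine kinase of cycling cells, was at 0.888 and 1.28 CPM in the knockout, against 2.31, 2.17 and 1.07 CPM in the control (-0.53, limma adjusted p = 0.21). The smallest control library was again the low one for Tk1.

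The 7 measured cyclins and transcription factors of G1 and S held 4 genes that were lower and 1 that was higher. The 3 D-type cyclins, which activate Cdk4 and Cdk6, were by far the most abundant of them and changed in both directions. Ccnd2 was at 251 and 252 CPM in knockout hearts, against a control mean of 196 ± 26.9 CPM (SD, n = 3), and was higher (log2 fold change 0.37, SE 0.11, limma adjusted p = 0.033). The deposited mean and SD allow no control library outside 165 to 227 CPM, so the groups did not overlap. Since its control libraries could not be worked back, Ccnd2 entered the test with values that stand in for them at the deposited mean and SD, and it was left out of the fits that leave out a library.

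Ccnd1 was at 45.8 and 45.0 CPM in the knockout, against 58.2, 62.4 and 59.5 CPM in the control, 75.6% of the control mean (log2 fold change -0.40, SE 0.07, limma adjusted p = 0.0050). Ccnd3 was at 25.3 and 22.3 CPM in the knockout and at 31.6, 32.7 and 34.4 CPM in the control, 72.3% of the control mean (log2 fold change -0.46, SE 0.09, limma adjusted p = 0.0077). Both were thus lower while Ccnd2 was higher, with no overlap in any of the 3. These directions were the same when values were scaled to group totals. Without the smaller knockout library the adjusted p was 0.060 for Ccnd1 and 0.11 for Ccnd3 (limma).

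Among the scarce genes of this role, Ccna2, the S-phase and G2 cyclin, was at 0.921 and 0.711 CPM in the knockout, against 2.27, 1.39 and 1.98 CPM in the control (log2 fold change -0.84, SE 0.22, limma adjusted p = 0.026). Ccne2, an E-type cyclin that acts at the entry to S phase, was at 0.789 and 0.426 CPM in the knockout and at 1.17, 1.54 and 1.40 CPM in the control (log2 fold change -0.77, SE 0.22, limma adjusted p = 0.037). These calls rest on 14 and 10 reads of Ccna2 and 12 and 6 of Ccne2 in the knockout, against 19 to 31 and 16 to 21 in the control. Ccne2 was no longer called with voom weights on the recovered reads (limma adjusted p = 0.057).

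Its paralogue Ccne1 was at 1.05 and 1.07 CPM in the knockout, against 1.47, 1.39 and 1.24 CPM in the control, and was not called (-0.26, limma adjusted p = 0.36). E2f1, an activating E2F, was at 0.789 and 0.426 CPM in the knockout and at 1.91, 1.25 and 0.990 CPM in the control (log2 fold change -0.75, SE 0.27, limma adjusted p = 0.072). E2f1 did not pass the threshold with all libraries, and passed it when the smallest control library was left out.

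**Figure D2:**
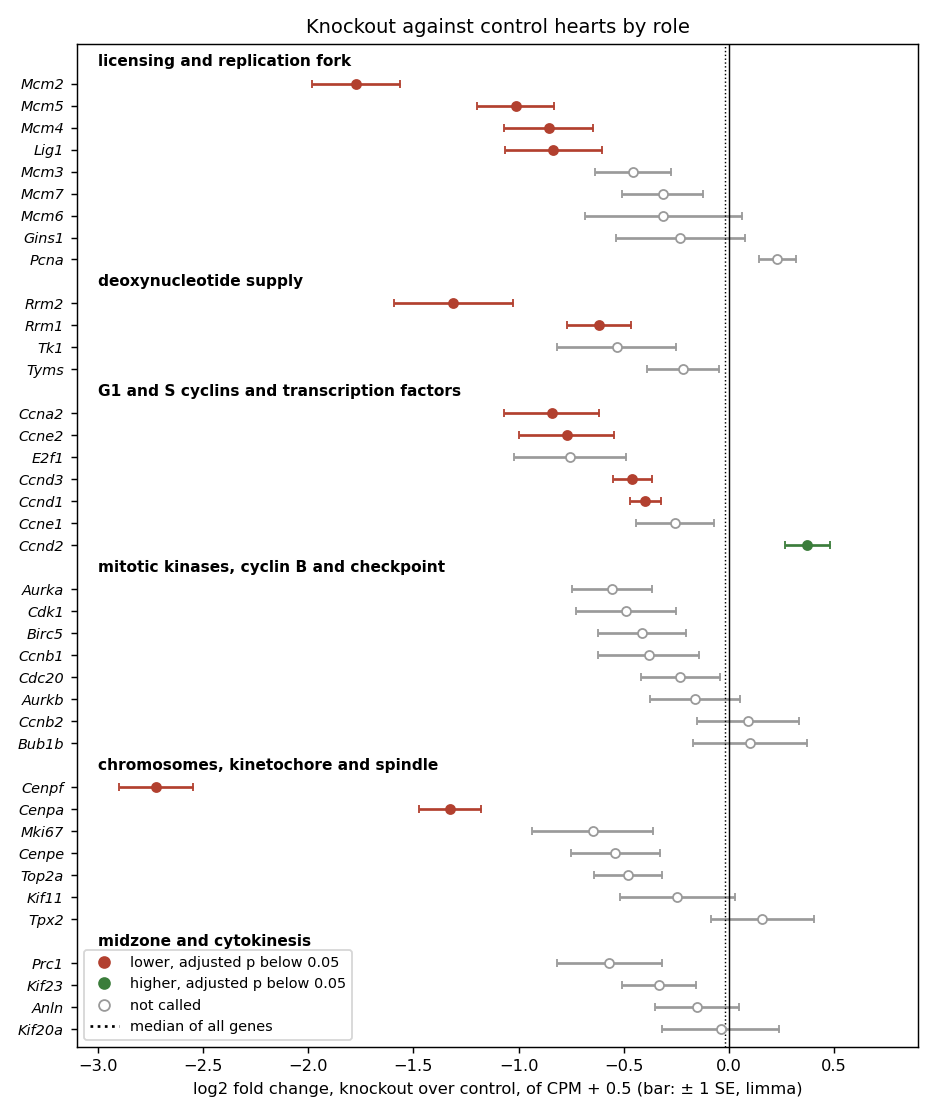
Log2 fold change, knockout over control, of CPM + 0.5 for each of the 39 genes by role, with 1 standard error (limma) to each side. Filled red points were lower and the filled green point, Ccnd2, higher at an adjusted p below 0.05, and open points were not called. All 12 lower genes belong to licensing and fork, deoxynucleotide supply, G1 and S cyclins, and chromosomes and kinetochore, and the dotted line marks the median of all genes, -0.02.

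The 8 measured genes of the mitotic kinases, cyclin B and the checkpoint were all scarce, with means of 0.720 to 2.52 CPM, and none was called. Their log2 fold changes ran from -0.56 to 0.10 with a median of -0.31, and 6 were below 0. By limma, 1 of the 8 (Aurka) was lower at an unadjusted p below 0.05, and voom weights called 0. Aurka, the centrosomal Aurora kinase, was at 0.658 and 0.711 CPM in the knockout, against 1.32, 1.25 and 1.16 CPM in the control, which is 10 and 10 reads against 18, 17 and 14. It had the largest difference of this role without passing the threshold (log2 fold change -0.56, SE 0.19, limma adjusted p = 0.065).

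Cdk1, the kinase that drives entry into mitosis, was at 2.17 and 1.63 CPM in the knockout and at 3.01, 2.06 and 3.71 CPM in the control, overlapping groups (-0.49, limma adjusted p = 0.17). Its cyclins did not share a sign, since Ccnb1 was at 0.614 and 0.912 CPM in the knockout against 1.09, 0.857 and 1.53 CPM in the control (-0.38, limma adjusted p = 0.29), and Ccnb2 was at 0.855 and 1.28 CPM against 0.880, 0.734 and 1.32 CPM in the control (0.09, limma adjusted p = 0.83). Birc5 and Aurkb, survivin and the kinase of the chromosomal passenger complex, had log2 fold changes of -0.41 and -0.16 (limma adjusted p = 0.19 and 0.64). Cdc20, the activator of the anaphase-promoting complex, was at 1.84 and 1.35 CPM in the knockout, against 1.98, 1.87 and 1.98 CPM in the control (-0.23, limma adjusted p = 0.41). Bub1b, the checkpoint protein BubR1, was at 0.789 and 0.711 CPM in the knockout and at 1.10, 0.587 and 0.413 CPM in the control, with the highest fold change of the role (log2 fold change 0.10, SE 0.27, limma adjusted p = 0.83), which turned to -0.08 without the smallest control library.

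The chromosome, kinetochore and spindle genes held the largest change and the widest range of levels. Cenpf, a large coiled-coil protein of the outer kinetochore that also binds the nuclear envelope and microtubules, was at 2.24 and 3.13 CPM in knockout hearts, against 19.3, 24.3 and 17.7 CPM in control hearts. The knockout mean was 13.1% of the control mean, 7.63-fold lower (log2 fold change -2.72, SE 0.18, limma adjusted p = 3.4e-05). In reads this was 34 and 44 in the knockout libraries and 263, 331.5 and 215 in the control libraries. Cenpf was the sixth most abundant of the 39 genes in the control and ranked 10 in the knockout.

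Cenpa, the histone H3 variant that marks the centromere, was the most abundant of them. It was at 23.0 and 19.8 CPM in the knockout, against 60.4, 59.8 and 43.9 CPM in the control, 2.56-fold lower (log2 fold change -1.33, SE 0.15, limma adjusted p = 0.00039). Like Mcm2, Cenpf and Cenpa remained called in all 10 alternatives that kept every library. In control hearts Cenpf, Cenpa, Pcna and the 3 D-type cyclins had means of 20.5 to 196 CPM, and each of the other 33 genes was at 10.2 CPM or less.

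The remaining genes of this role lay between 0.383 and 3.30 CPM. Mki67, the proliferation antigen Ki-67, was at 0.383 and 1.02 CPM in the knockout and at 1.72, 0.991 and 1.31 CPM in the control, overlapping groups (log2 fold change -0.65, SE 0.29, limma adjusted p = 0.14). Top2a, the topoisomerase of dividing cells, was at 1.97 and 2.35 CPM in the knockout, against 3.08, 3.30 and 3.22 CPM in the control, with no overlap and no call (-0.48, limma adjusted p = 0.062). Cenpe, a kinetochore motor, was at 0.395 and 0.569 CPM in the knockout and at 0.807, 1.06 and 0.908 CPM in the control (-0.54, limma adjusted p = 0.099).

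The spindle motor Kif11 was at 1.05 and 0.426 CPM in the knockout, against 0.880, 1.17 and 0.743 CPM in the control (-0.25, limma adjusted p = 0.56). Tpx2, which activates Aurka on the spindle, was at 0.756 and 0.782 CPM in the knockout and at 0.953, 0.440 and 0.578 CPM in the control, the highest fold change of the role and the lowest mean level of the 39 genes (log2 fold change 0.16, SE 0.24, limma adjusted p = 0.69). Setting Cenpf and Cenpa against these genes gives values side by side only, since the difference between genes was not tested.

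The 4 measured genes of the midzone and cytokinesis had means of 0.984 to 1.54 CPM, and none was called, with 0 of 4 at an unadjusted p below 0.05 by limma and 0 called with voom weights. Prc1, which bundles the antiparallel microtubules of the midzone, was at 0.987 and 0.853 CPM in the knockout, against 2.20, 1.10 and 1.65 CPM in the control (log2 fold change -0.57, SE 0.25, limma adjusted p = 0.13). Kif20a, a midzone kinesin, was at 1.38 and 1.28 CPM in the knockout and at 1.17, 0.954 and 2.23 CPM in the control (log2 fold change -0.04, SE 0.28, limma adjusted p = 0.94). Kif23, the motor of centralspindlin, was at 1.18 and 1.35 CPM in the knockout, against 1.76, 1.76 and 1.65 CPM in the control (-0.33, limma adjusted p = 0.21), and Anln, the furrow protein anillin, at 0.921 and 0.853 CPM against 0.953, 0.954 and 1.24 CPM in the control (-0.15, limma adjusted p = 0.63).

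**Figure D3:**
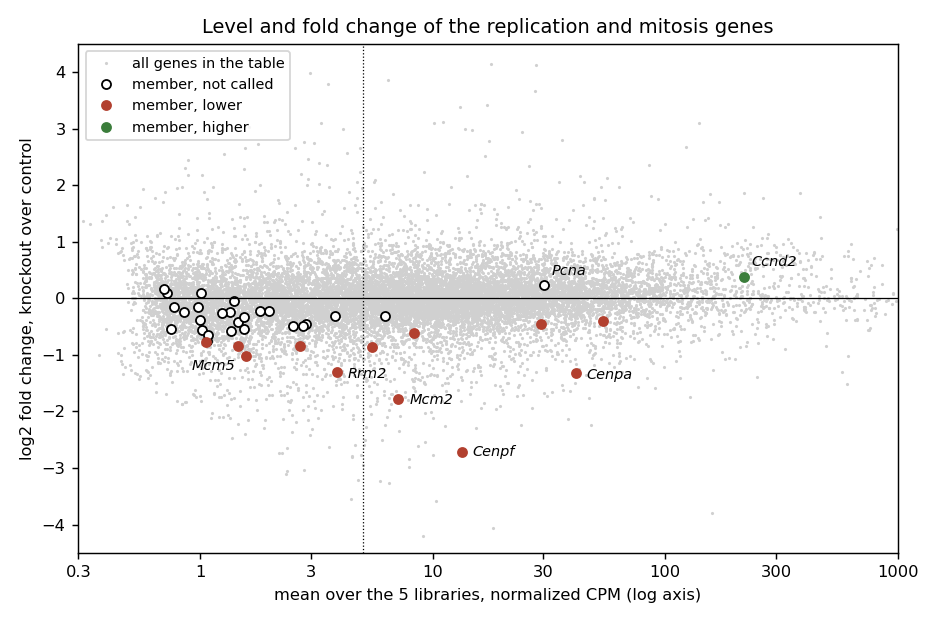
Mean over the 5 libraries (normalized CPM, log axis) against the log2 fold change, knockout over control, for the 39 genes (circles) and all genes of the table (grey; those beyond the axes are not drawn). The dotted line stands at 5 CPM: 7 of the 10 circles to its right and 5 of the 29 to its left were called lower, and Ccnd2 was called higher.

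The summed level of each role was taken per library over its genes with recovered reads, as a description. The chromosome, kinetochore and spindle genes summed to 29.8 and 28.0 CPM in the knockout libraries, against 87.1, 91.1 and 68.4 CPM in the control libraries. Most of that gap was Cenpa and Cenpf. Licensing and fork genes summed to 51.9 and 54.7 CPM in the knockout, against 73.7, 71.0 and 55.1 CPM in the control, with most of the knockout sum from Pcna.

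Deoxynucleotide genes summed to 9.83 and 11.7 CPM in the knockout, against 22.7, 16.4 and 17.9 CPM in the control. The mitotic kinases, cyclin B and checkpoint genes summed to 8.77 and 8.37 CPM, against 12.1, 9.66 and 12.6 CPM in the control. In the midzone genes the sums were 4.47 and 4.34 CPM in the knockout and 6.09, 4.77 and 6.77 CPM in the control. In each of the 6 roles both knockout sums lay below all 3 control sums, for the G1 and S cyclins without Ccnd2. With Ccnd2 the group means of that role summed to 324 CPM in the knockout and 295 CPM in the control, so its direction turns. In licensing and fork the gap was small, with 54.7 CPM in the higher knockout library and 55.1 CPM in the smallest control library. The 33 genes other than the D-type cyclins, Pcna, Cenpa and Cenpf summed to 50.9 and 52.9 CPM in the knockout and to 98.8, 86.8 and 77.9 CPM in the control, 1.69-fold lower.

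**Figure D4:**
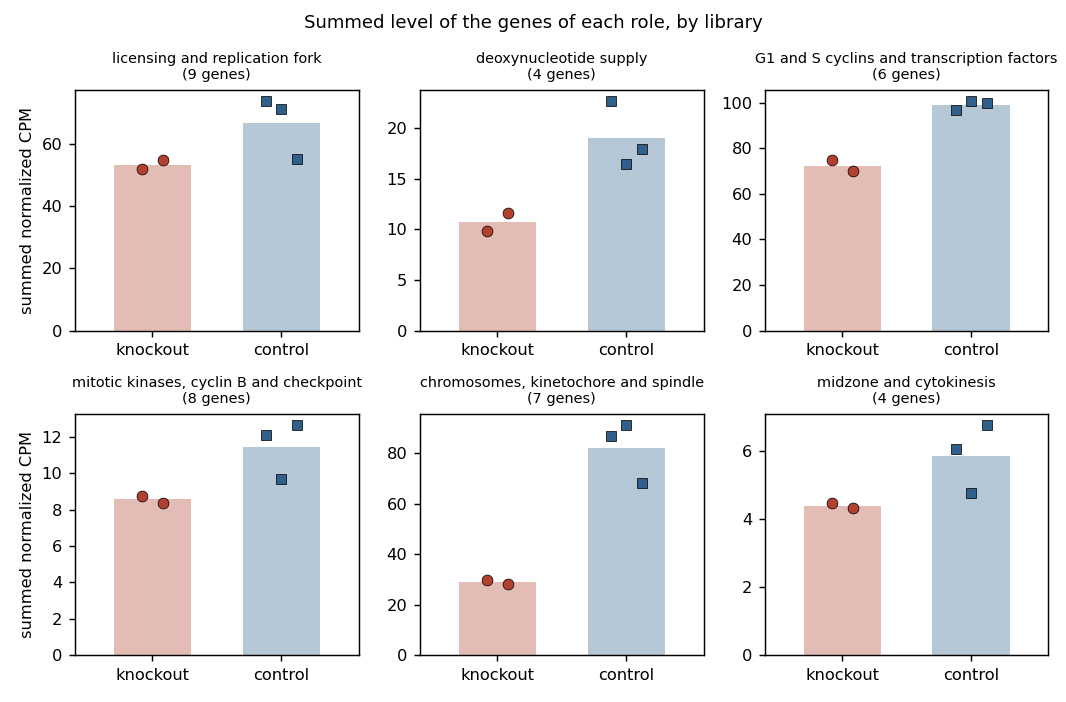
Summed normalized CPM of the genes of each role with recovered reads, by library. Circles are the 2 knockout libraries, squares the 3 control libraries in order of size from left to right, bars the group means, and every axis starts at 0. The chromosome, kinetochore and spindle genes have a control mean 2.85 times the knockout mean, and licensing and fork genes 1.25 times, the least of the 6.

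The wider cell-cycle lists held 245 further genes, 201 of them measured, of which 23 were lower and 13 higher with a median log2 fold change of -0.11. For Nme2, Ccng1, Cks2, Cdkn2c, Rhoa, Haus8 and Ube2c below, as for Immt, the control entered the test with values that stand in at the deposited mean and SD. This is 11.4% lower and 6.47% higher, against 12.3% and 13.3% of all genes. Origin licensing and firing had 1 of 15 lower and none higher. That gene was Gins2, a partner of Gins1, with means of 0.780 CPM in the knockout and 1.88 CPM in the control (-0.90, limma adjusted p = 0.011).

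Polymerases and fork factors had 7 of 32 lower and none higher. Asf1b, the histone chaperone of proliferating cells, averaged 0.843 ± 0.389 CPM in the knockout (SD, n = 2) and 3.40 ± 0.729 CPM in the control (SD, n = 3), 4.03-fold lower (-1.55, limma adjusted p = 0.0025). Pola2, a subunit of the primase-polymerase, had log2 fold change -0.72, the flap endonuclease Fen1 -0.72 and Rpa3, the smallest subunit of the single-strand binding complex, -0.45. Deoxynucleotide enzymes had 3 of 14 higher. The nucleoside diphosphate kinases Nme2 and Nme1 were higher by 0.78 and 0.77 and dCMP deaminase, Dctd, by 1.41 on the log2 scale.

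Cyclins, CDKs and CDC25 phosphatases had 5 of 26 lower and none higher. Wee1, which holds Cdk1 inactive, averaged 3.93 CPM in the knockout and 8.56 CPM in the control (-1.03, limma adjusted p = 0.00078), Ccng1, a p53 target, had log2 fold change -0.71, Cks2, a Cdk-binding protein, -1.01 and Cdk6 -0.52. CDK inhibitors had 3 of 6 lower, namely Cdkn2c at -0.67, Cdkn1c at -0.77 and Cdkn2d at -0.53, and 1 higher, Cdkn1a, at 2.17 (SE 0.55, limma adjusted p = 0.021). The Cdkn1a means were 75.7 CPM in the knockout and 21.1 CPM in the control, where 1 library was at 43.6 CPM, as given above.

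The RB, E2F and DREAM list had 3 of 21 lower and 2 higher. Myc, a transcription factor of growth and proliferation, was at 30.3 and 28.6 CPM in the knockout, against 3.89, 1.98 and 4.29 CPM in the control, 8.71-fold higher (log2 fold change 3.00, SE 0.26, limma adjusted p = 0.00012). E2f3, an activating E2F, was higher at 0.60, the repressor E2f8 lower at -1.001 and Rbl1, which encodes p107, lower at -0.78. In this list the members that were called thus went in both directions while E2f1, above, was not called.

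The mitotic lists gave few calls. Kinetochore, cohesin and condensin genes had 2 of 41 lower (Ncapd2 at -0.59 and Spc24 at -0.69) and 2 higher, the checkpoint protein Zw10 at 0.96 and the kinetochore protein Cenpp at 0.77. Spindle, centrosome and cytokinesis genes had 3 of 27 higher and none lower, and the 3 were Rhoa at 0.50, the stress-responsive kinase Plk2 at 0.51 and Haus8 at 0.28. The anaphase-promoting complex had 2 of 19 higher, Anapc15 at 0.76 and the ubiquitin-conjugating enzyme Ube2s at 1.13, and 1 lower, Ube2c at -1.05, which is the other ubiquitin-conjugating enzyme of this complex.

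**Figure D5:**
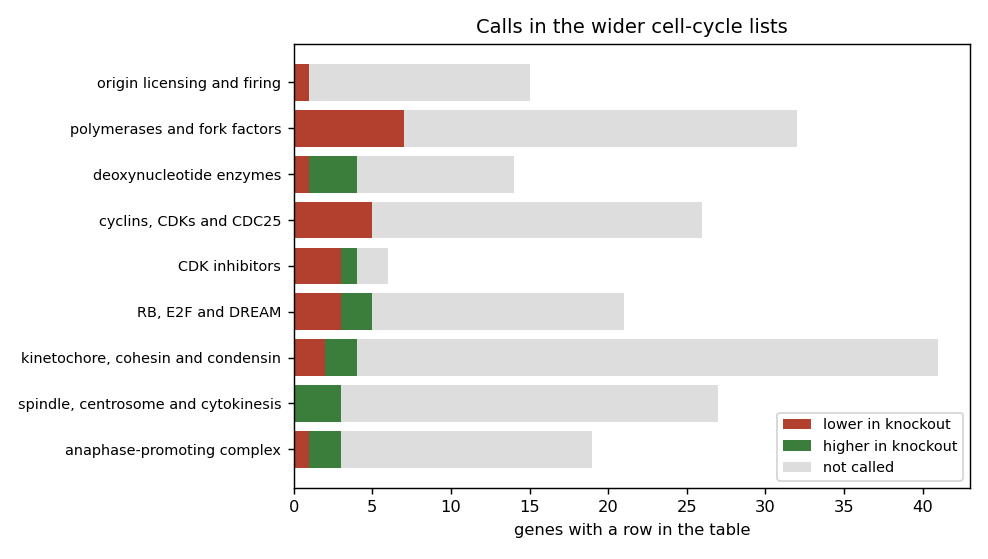
Number of measured genes in each of 9 wider cell-cycle lists that were lower (red), higher (green) or not called (grey) in the knockout at an adjusted p below 0.05. Polymerases and fork factors (7 of 32) and cyclins, CDKs and CDC25 (5 of 26) had the most genes lower, and the spindle list had 3 higher and none lower.

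Some values are uncertain for reasons of counting. In 17 of the 38 genes at least 1 library came out at a fraction of a read, as counting of reads shared between features gives. In GENCODE M21, 11 of the 39 genes have exons overlapping those of another gene of the table on the opposite strand, 6 of the 13 called genes among them: Lig1 with Zswim9, Ccnd1 with LTO1, Ccnd2 with 9330179D12Rik, Ccnd3 with Bysl, Ccne2 with Ints8 and Ccna2 with Exosc9. Whether strand was used in counting is not given in the sources used here, so reads of such partners may not be separated.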

How the data were processed

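Bulk RNA of mouse hearts was made into oligo-dT primed 3′ tag libraries with unique molecular identifiers and sequenced by a commercial provider, Plasmidsaurus. The submitters' processing notes name the GRCm39 build and, without roles, edgeR 4.0.16, Subread 2.1.1 with featureCounts, STAR 2.7.11 and SAMtools 1.22.1. The deposited table gives, for 15116 genes, a mean signal per group in CPM normalized by the authors. The deposited SDs are in the same CPM units. The columns sum to 947955 CPM in the knockout and 1036321 CPM in the control, and the filter on low genes is not stated. Columns of the authors' own comparison (fold change, average level, F, p and adjusted p) were not used.

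Both knockout values of a gene follow from its mean and SD. The 3 control values were found by a search for whole reads, then for fractions of a read, at each library's CPM per read. The search gave a single solution for 86.2% of genes in the control and 88.8% in the knockout, and for 84.2% in all 5 libraries. Unresolved control genes entered with 3 values of the same mean and SD. The search and the test were checked on simulated data.

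The test was limma 3.58.1 (R 4.3.3), lmFit and eBayes with a trend on log2(CPM + 0.5), Benjamini-Hochberg adjustment over all genes, and calls at an adjusted p below 0.05. Called genes, the D-type cyclins and each role's highest and lowest fold change are given in full, and up to 4 called genes by p from each wider list. A gene that this rule picks from the wider lists is not reported here. The genes and lists were chosen with earlier results of these data known. Alternatives were scaling to group totals (with and without mitochondrial genes), pseudocounts of 0.1 and 2 CPM, and minimum means of 1 and 5 CPM. Others were voom on recovered reads, means and SDs alone, stand-in control values and leaving out each library. The use of recovered genes only was added after seeing the data.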

Additional observations from a re-analysis of the deposited data

How the results depend on the processing

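Scaling to group totals made 2 of the 39 genes and 3056 of all genes higher, in place of 1 and 2015. Of all calls, 69.2% were then higher, against 52.0%. There Pcna was called at 0.36 and Kif20a turned to 0.055. With a minimum mean of 5 CPM 7 genes were lower, as only 10 were tested. Voom on recovered reads called 0 higher (1298 of all genes), and recovered genes only, added after seeing the data, 0 higher (1233 of all genes), since both lack Ccnd2. Leaving out 1 library gave 4 to 15 genes lower and 0 higher, and 655 to 2084 lower and 466 to 1680 higher of all genes. Kif20a moved between -0.22 and 0.23 and Bub1b between -0.078 and 0.33 there. Mcm2, Cenpa and Cenpf were called under every alternative run. At 1 CPM a library holds 12.1 to 15.2 reads, and the knockout group has 2 libraries. No paired analysis was possible because the table's columns carry no replicate numbers.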
